A study of Mus musculus with 136 samples.

Results

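Among the 15196 genes with RNA values in these mouse macrophages, 138 were both very long and expressed. They were chosen by a span of at least 150000 bases in mm9 coordinates of the mouse genome and a mean of at least 1 RPKM (reads per kilobase of gene per 1000000 reads) in chromatin-associated RNA at 0, 0.5, 1, 2 or 6 h of lipid A, over 7 wild-type libraries per time. These 138 are 0.908% of the table and 21.6% of the 639 genes that long. Expressed genes of any length numbered 4401 by the same rule, of which 1654 spanned under 10 kb, 1981 spanned 10 to 50 kb and 628 spanned 50 to 150 kb.

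The cells were bone marrow-derived macrophages, grown from C57/B16 (so spelled in the labels), Nfkb1-/-, Nfkbiz-/-, Bcl3-/- or Nfkbid-/- mice for 6 days in M-CSF, the cytokine that drives marrow precursors to macrophages. RNA held on chromatin was measured in cells labelled Nfkb1 KO and their WT (3 replicates each), Nfkbiz KO and WT (2 each), Bcl3 KO and WT (2 each) and Nfkbid KO and WT (3 each) at all 5 times of lipid A, the endotoxin moiety sensed by the receptor TLR4. Chromatin RNA was also measured in wild-type cells pretreated with ERKi (an ERK inhibitor by its label) or with DMSO at 0, 15, 30 and 60 min, and in wild-type cells given TNFa, with 1 library per condition. Polyadenylated RNA came from wild-type cells given lipid A or TNFa (9 libraries), from cells labelled J2 BMDM of wild-type, Nfkb1-/- and Nfkb1-/- Nfkb2-/- genotype (8), and from cells labelled Control and IkBz OE (6). The labels do not say whether replicates came from separate animals or cultures, so p-values measure the spread between these libraries. Nfkb1 encodes p50, a DNA-binding subunit of NF-kB, and Nfkbiz (IkBz), Bcl3 and Nfkbid (IkBNS) encode nuclear IkB proteins that bind it.

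A gene's span is read by RNA polymerase II from start to end, and a polymerase needs far longer to cross a very long gene than a short one. Most of that span is intron, which is present in chromatin RNA and removed from mature mRNA. A value averaged over the whole span of a gene in chromatin RNA therefore counts nascent RNA anywhere between start and end, while polyadenylated RNA counts finished transcripts. In macrophages, lipid A sets off rapid transcription of many short inflammatory genes, and long genes encode many of the scaffolds, exchange factors, adhesion and vesicle proteins that shape the cell.

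The members had a median span of 208.1 kb, with 74 of at least 200 kb and 26 of at least 300 kb. The longest was Lrmda, a gene linked to melanocyte differentiation, at 1036 kb (chromosome 14, 22838933 to 23875310). Next came Wwox, an oxidoreductase whose human gene lies at a fragile site (913.1 kb), Diaph2, a formin that builds actin filaments (716.1 kb), Cdk14, a cyclin-dependent kinase (576.9 kb), and Smyd3, a methyltransferase (566.1 kb). Just inside the length limit were Nav1 at 150776, Htt at 150795 and Akap9 at 152019 bases, and just outside it Vps41 at 149520, Ugt1a9 at 149224 and Tbl1x at 149039 bases. Just inside the level limit were Ctnnbl1, Tbc1d4 and 1700025G04Rik, whose highest mean was 1.01 RPKM, and just outside it Smg6 at 0.996, Crim1 at 0.974 and Vav2 at 0.964 RPKM. The median member reached a highest mean of 2.69 RPKM, and the top one reached 20.5 RPKM. Of the 138, 122 met the level at 0 h and 51 at all 5 times, while 18 met it at 1 time. The highest wild-type mean fell at 0 h in 71 members, at 0.5 h in 6, at 1 h in 19, at 2 h in 28 and at 6 h in 14. These values chose the members and are given as a description. The spans of 19 members overlap another gene of the table, so that shared reads cannot be assigned, as for Lrmda, Dock1, Dock2, Iqgap2, Ralgapa2, Snd1 and Tbxas1, and for Ugt1a10, whose span covers 8 other genes.

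The letters of NF-kB, AP-1 and CRE motifs were about as frequent around the members' starts as around all starts. RefSeq promoters, 250 bases before to 50 after a start in GRCm38, were matched by symbol for 110 members with 117 promoters. The NF-kB pattern searched leaves a pair of letters open in its middle and does not cover every form of NF-kB site. It was on either strand of 3 of the 117 (2.56%), beside 1.63% of all 32851 promoters of the table. TGANTCA, the AP-1 letters, were in 6.84% beside 7.81%, and TGACGTCA, the CRE letters, in 1.71% beside 1.79%. The 3 promoters with the NF-kB pattern belong to Akap13 (chr7:75455284-75455583, plus strand), Hdac9 (chr12:34917046-34917345, minus strand) and Trio (chr15:28025799-28026098, minus strand). They are printed because these members recur below, with the match in capitals, in the direction of the gene.
Akap13: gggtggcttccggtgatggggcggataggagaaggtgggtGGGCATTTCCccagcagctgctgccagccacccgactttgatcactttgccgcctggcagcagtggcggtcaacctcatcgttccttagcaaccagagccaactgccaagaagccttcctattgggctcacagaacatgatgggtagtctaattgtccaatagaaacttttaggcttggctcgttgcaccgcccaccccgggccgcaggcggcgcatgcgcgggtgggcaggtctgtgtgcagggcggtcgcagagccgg
Hdac9: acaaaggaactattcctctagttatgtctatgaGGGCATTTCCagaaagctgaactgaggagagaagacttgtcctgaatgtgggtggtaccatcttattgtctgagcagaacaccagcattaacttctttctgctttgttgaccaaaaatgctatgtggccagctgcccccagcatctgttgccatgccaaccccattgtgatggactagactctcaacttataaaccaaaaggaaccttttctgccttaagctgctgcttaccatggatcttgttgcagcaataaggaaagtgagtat
Trio: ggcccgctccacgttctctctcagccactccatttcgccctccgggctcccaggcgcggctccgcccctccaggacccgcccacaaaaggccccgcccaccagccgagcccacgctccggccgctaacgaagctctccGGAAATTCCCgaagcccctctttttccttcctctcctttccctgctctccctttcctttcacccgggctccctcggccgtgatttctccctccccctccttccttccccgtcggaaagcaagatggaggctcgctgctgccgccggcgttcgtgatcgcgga
The first and second carry GGGCATTTCC as written, and the one of Trio matches on the opposite strand. None of the matched promoters of the 7 members that rose first, named below, held any of the 3 motifs. A match is a description of the letters, not of a bound site.

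Depth recovered from the smallest steps between values was 7.86 to 45.3 M reads in the 113 chromatin libraries (median 28.8), so that 1 RPKM over 150 kb rested on 1178 to 6798 reads. Whether read counting or the spread between replicates set the precision of the members was not tested. Nfkbid replicate 1, in both genotypes and at all times (10 libraries), stood apart: the members' median was 0.234 to 0.382 RPKM there, against 1.02 to 1.87 RPKM in Nfkbid replicates 2 and 3 and 0.470 to 1.92 RPKM in the other 83 chromatin libraries. Malat1, an RNA that stays in the nucleus, was at 6.92 to 19.4 RPKM in those 10 libraries, against 823 to 1640 RPKM in replicates 2 and 3. Results that rest on Nfkbid replicate 1 are given with and without it. The 10 libraries of Nfkb1 replicate 1 were shallow (7.86 to 16.2 M reads) and low in the members, whose medians there were 0.470 to 1.09 RPKM. In Nfkb1 replicates 2 and 3 those medians were 1.06 to 1.69 RPKM. Without Nfkb1 KO replicate 1, members higher and lower than at 0 h were 7 and 3 at 0.5 h, 22 and 54 at 2 h, and 0 were called against WT. Of 9 macrophage markers 5 are in the table, and 4 reached a median of 1 RPKM in chromatin RNA, while none of the lymphocyte, dendritic, stromal, erythroid or mast cell markers did. The 5 granulocyte precursor markers in the table had medians under 1 RPKM in chromatin RNA (summed level 0.0761 to 39.0 RPKM per library) and of at least 1 RPKM in polyadenylated RNA (0.639 to 193.8 RPKM), and their part in the polyadenylated results was not tested. Whole-span values do not check the deletions: Nfkb1 lay at 0.703 to 21.3 RPKM in Nfkb1 KO and 1.33 to 24.0 RPKM in WT libraries, and Bcl3 was higher in each library labelled Bcl3 KO than in each WT library at every time (8.79 and 8.89 against 2.20 and 2.66 RPKM at 0 h, 29.5 and 40.9 against 8.60 and 9.55 RPKM at 6 h). The position of the deletion was not at hand, and why Bcl3 was higher was not tested. The values of Nfkbiz and Nfkbid were not used here.

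Lipid A moved few of the members within 0.5 h and many by 2 h. The change over time was tested in the 65 chromatin libraries that had not chosen the members: Nfkb1 KO, Nfkbiz KO, Bcl3 KO, Nfkbid KO and Nfkbid WT, 13 libraries per time, so that 4 of the 5 genotype groups carry a KO label. Differences are on the scale of log2(RPKM + 0.5), which understates the change of low genes, and a gene was called at an adjusted p under 0.05 and at least 1.5-fold in limma, with genotype group as a term. Of the 138 members 128 passed the filter on low values, and Tbc1d4, Chchd3, Ctnnbl1, Dym, Pibf1, Efcab11, Mvb12b, Rttn, Slc9a7 and 1700025G04Rik did not. At 0.5 h, 7 were higher and 1 was lower than at 0 h. Over all 4255 genes tested, 8.65% were higher and 33.1% lower at that time. At 1 h, 13 members were higher and 33 lower, beside 10.7% and 29% of all genes. At 2 h, 22 were higher and 53 lower, beside 13.8% and 35%, and at 6 h, 19 were higher and 43 lower, beside 13.6% and 29.4%. In bulk RNA, fewer cells and less RNA per cell cannot be told apart behind any of these changes. In all, 98 of the 128 members (76.6%) were called at some time and 30 at none, beside 78.9% of genes of 50 to 150 kb, 79.4% of those of 10 to 50 kb and 66.5% of those under 10 kb.

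The same 128 members were then compared between 2 h and 0.5 h directly. In this contrast 22 members were higher and 48 lower at 2 h, beside 18.1% and 18.8% of all genes, and the members' median difference was −0.36 against 0.01 over all genes. Their median difference from 0 h was −0.15, −0.25, −0.46 and −0.34 at 0.5, 1, 2 and 6 h, while over all genes tested it was −0.45, −0.31, −0.42 and −0.33. The median gene thus shifted by more than 0.1 at each of these times. With each library centred on its median over the genes tested, 14 members were higher and 0 lower at 0.5 h (all genes 14.55% and 9.495%), 26 and 11 at 1 h (18.61% and 14.9%), 33 and 22 at 2 h (21.5% and 17.37%), 30 and 24 at 6 h (19.86% and 15.25%), and 20 and 48 between 2 h and 0.5 h (18.54% and 19.13%). The members' median difference was then 0.28, 0.09, −0.04 and −0.02 at the 4 times, so that centring turned its sign at 0.5 and 1 h, and among members of at least 3 RPKM the uncentred median at 1 h was 0.0018. Centring ended 1, 22, 31 and 19 of the lower calls at the 4 times and none of the higher ones, and no called member changed sign. Without Nfkbid replicate 1 (129 members tested), 10 were higher and 4 lower at 0.5 h (all genes 11.19% and 41.35%), 20 and 41 at 1 h (14.01% and 33.39%), 28 and 60 at 2 h (16.86% and 39.34%) and 23 and 46 at 6 h (16.28% and 32.3%), and no call made with it was lost.

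**Figure D1:**
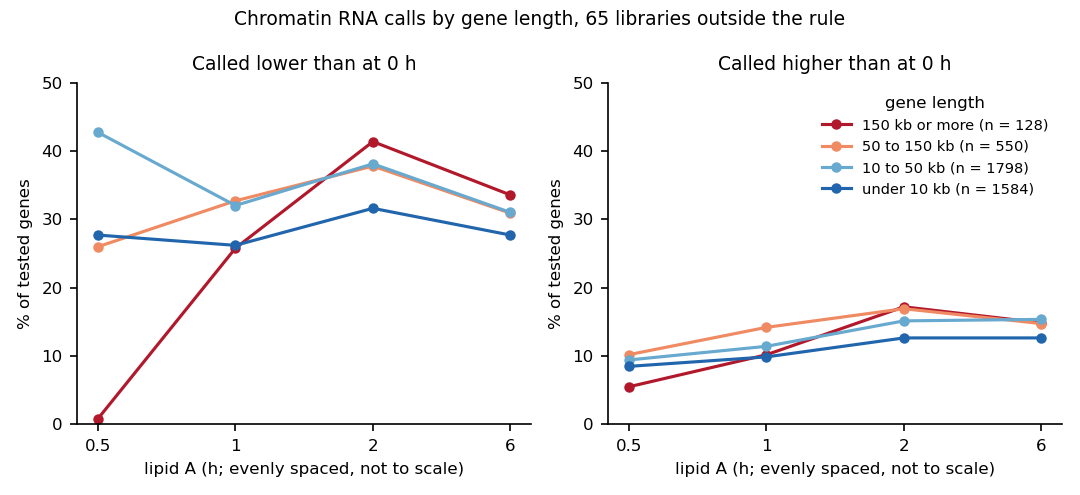
Share of tested genes (%) called lower (left) or higher (right) than at 0 h in chromatin RNA, by hours of lipid A and gene length, in 65 libraries; points are shares, with no error bars. At 0.5 h, 0.781% of the members were lower, against 26% of genes of 50 to 150 kb and 42.8% of genes of 10 to 50 kb, and at 2 h the shares were 41.4%, 37.8% and 38.2%.

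Shares of genes called lower were set side by side over length as a description. At 0.5 h they were 0.781% of the members, 26% of genes of 50 to 150 kb, 42.8% of genes of 10 to 50 kb and 27.7% of genes under 10 kb. At 2 h they were 41.4%, 37.8%, 38.2% and 31.6% in the same order. Of the 68 members whose largest change was a fall, the first call came at 0.5, 1, 2 and 6 h in 1, 33, 28 and 6, whereas of the 1035 such genes of 10 to 50 kb 70.4% were first called at 0.5 h. At 0.5 h the median falling member had 19.4% of its largest difference, beside 50.5%, 78.5% and 69.1% in the 3 shorter classes. The median rising member had 3.93% of it then, beside 11.1%, 16.2% and 24.6%. Both summaries use genes chosen by their calls, and no test was made of the difference between classes.

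Within the members, the median length was greater at later first calls for falls, with ranges that overlapped, and not for rises. The 33 first called lower at 1 h had a median length of 183.1 kb, the 28 first called at 2 h one of 218.5 kb, and the 6 first called at 6 h one of 318.5 kb. The ranges were 150.8 to 340.1 kb, 150.8 to 566.1 kb and 169.8 to 913.1 kb. For the 30 that rose, the medians were 187.1 kb at 0.5 h (7 members), 277.1 kb at 1 h (6), 207.4 kb at 2 h (15) and 195.2 kb at 6 h (2). Among the 26 members of at least 300 kb, none was called in either direction at 0.5 h, 1 was higher and 1 lower at 1 h, 3 and 9 at 2 h, and 2 and 11 at 6 h. Among the 57 of 150 to 200 kb, 5 were higher and 1 lower at 0.5 h, and 9 and 26 at 2 h. These are descriptions over members, which are not replicates.

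The 7 members called higher at 0.5 h were Map3k5, Fchsd2, Cdk6, Abtb2, Dock10, Sash1 and Plxna2. Per-library levels below are the lowest, the median and the highest of 11 libraries per time (the 13 without Nfkbid replicate 1), and the fits use all 13 unless stated. Map3k5 (chromosome 10, 19654331 to 19862556) encodes ASK1, a kinase upstream of p38 and JNK. Its level was 0.402, 1.04 and 1.22 RPKM at 0 h and 1.67, 3.86 and 5.30 RPKM at 0.5 h. It was then 3.10, 4.31 and 8.24 RPKM at 1 h, and its medians at 2 and 6 h were 1.14 and 0.389 RPKM. Every one of the 11 libraries at 0.5 h lay above every one at 0 h, and by 6 h the highest, 0.665 RPKM, lay below the 0 h median. The difference from 0 h was 1.27 (SE 0.27, limma adjusted p = 8.03e-05) at 0.5 h and 1.55 at 1 h, and at 6 h it fell by 0.62 (adjusted p = 0.0463), a call that centring ended (−0.29, adjusted p = 0.474).

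Dock10 (chromosome 1, 80497642 to 80755128), an exchange factor for Cdc42 and Rac, peaked at 1 h. Its level was 0.962, 3.44 and 3.98 RPKM at 0 h, 3.14, 7.90 and 12.5 RPKM at 0.5 h and 7.40, 16.8 and 23.0 RPKM at 1 h, and the median was 3.11 RPKM at 6 h. The 1 h libraries did not overlap those at 0 h, and at 6 h the groups overlapped. The differences were 0.93 (SE 0.33, adjusted p = 0.0145) at 0.5 h, 1.86 (adjusted p = 2.61e-06) at 1 h and 0.76 (adjusted p = 0.0405) at 2 h in limma. Fchsd2, a membrane-bending protein of endocytosis, rose by 1.10 at 0.5 h and 2.23 at 1 h, with medians of 0.928, 3.18, 8.55, 4.37 and 1.67 RPKM at the 5 times. Cdk6, a kinase of the G1 phase, rose by 0.95 and 1.65 at those times, with medians of 2.22, 6.48, 9.92, 3.57 and 2.84 RPKM. Sash1, a scaffold of TLR4 signalling, rose by 0.75 at 0.5 h (adjusted p = 0.0274) and by 0.75 at 6 h, with medians of 5.79, 11.2, 8.90, 6.58 and 9.80 RPKM. These 3 each had the same sign in all 5 genotype groups at 0.5 h.

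Abtb2, an ankyrin and BTB domain protein (chromosome 2, 103406466 to 103558580), had the largest rise of all members at 2 h. Its level was 0.0415, 0.0654 and 0.192 RPKM at 0 h, 0.295, 0.702 and 1.63 RPKM at 0.5 h, 1.55, 4.39 and 6.48 RPKM at 1 h and 1.02, 6.60 and 10.9 RPKM at 2 h. At each time from 0.5 h on, all 11 libraries lay above all 11 at 0 h. Its difference was 0.94 at 0.5 h, 2.51 at 1 h, 3.07 (SE 0.36, limma adjusted p = 7.44e-11) at 2 h and 2.79 at 6 h.

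Plxna2, a semaphorin receptor, rose first and then fell below its level at 0 h. Its medians were 0.718, 1.61, 2.85, 0.165 and 0.0691 RPKM at 0, 0.5, 1, 2 and 6 h. The differences at 0.5, 1, 2 and 6 h were 0.71, 1.22, −0.66 and −0.81, each past the limma threshold. Map3k5 was higher at 0.5 and 1 h and lower at 6 h, Ankrd44, a subunit of a protein phosphatase complex, was higher at 1 h and lower at 6 h, and Apba1, an adaptor of vesicle traffic, was below 0 h at 1 h and above it by 6 h. These 4 were the members called in both directions.

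**Figure D2:**
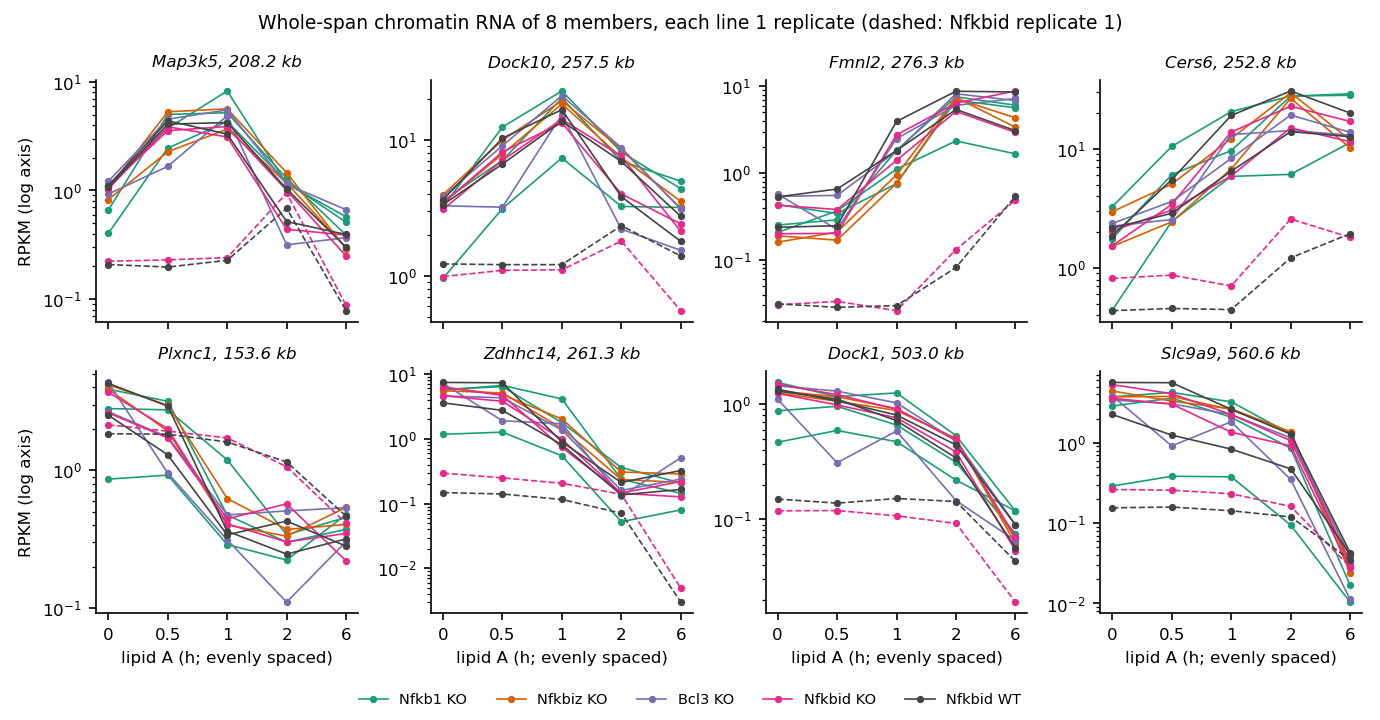
Whole-span chromatin RNA (RPKM, log axis) of 8 members at 0 to 6 h of lipid A, 1 line per replicate, coloured by genotype group; dashed lines are Nfkbid replicate 1. Map3k5 and Dock10 peak at 1 h, Fmnl2 and Cers6 at 2 or 6 h, and Dock1 and Slc9a9 are lowest at 6 h, while the dashed lines lie apart.

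Fmnl2, Cers6, Fndc3a, Ext1 and Cdyl2 rose later. Fmnl2 (chromosome 2, 52716901 to 52993236), a formin of the leading edge, was at 0.160, 0.253 and 0.574 RPKM at 0 h and 0.169, 0.290 and 0.657 RPKM at 0.5 h. It was at 0.757, 1.79 and 3.94 RPKM at 1 h and 2.35, 6.92 and 8.78 RPKM at 2 h. The first 2 times overlapped throughout, and at 1 h every library was above every one at 0 h. Its difference was −0.01 (adjusted p = 0.982) at 0.5 h, 1.15 at 1 h and 2.59 (SE 0.34, limma adjusted p = 2.6e-09) at 2 h. In Nfkbid replicate 1 it stayed at 0.0261 to 0.0335 RPKM through 1 h, and was 0.491 and 0.543 RPKM at 6 h.

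Cers6, a ceramide synthase (chromosome 2, 68699497 to 68952340), was at 6.12, 22.9 and 30.7 RPKM at 2 h, against 0.443, 2.05 and 3.27 RPKM at 0 h, without overlap, a difference of 2.76 (SE 0.41, limma adjusted p = 4.7e-08). Fndc3a, a fibronectin domain protein, had medians of 2.78, 2.39, 3.05, 15.2 and 8.95 RPKM and a difference of 2.04 at 2 h. Ext1, a polymerase of heparan sulfate, had medians of 1.78, 2.38, 6.78, 12.0 and 9.92 RPKM and a difference of 2.01 at 2 h. Cdyl2, a chromodomain protein, had medians of 0.658, 0.611, 1.04, 5.37 and 0.933 RPKM and a difference of 1.83 at 2 h. Hivep3, a zinc finger protein that binds NF-kB-like sites, and Akap13, an exchange factor for RhoA, were called higher first at 1 h, by 1.47 and 1.37.

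Plxnc1, Vps13c and Myo5a were among the members first called lower by 1 h, which reached from Htt (150.8 kb) to Rere (340.1 kb). Plxnc1, a semaphorin receptor of 153.6 kb (chromosome 10, 94253611 to 94407212), was at 0.864, 3.68 and 4.34 RPKM at 0 h, 0.924, 1.93 and 3.17 RPKM at 0.5 h, 0.290, 0.409 and 1.19 RPKM at 1 h and 0.111, 0.333 and 0.572 RPKM at 2 h. The groups at 0.5 and 0 h overlapped, and those at 2 and 0 h did not. It fell by 0.49 at 0.5 h, under the 1.5-fold minimum, by 1.63 (SE 0.17, limma adjusted p = 7.58e-12) at 1 h and by 1.87 at 2 h. Vps13c, a lipid transfer protein of 157.4 kb, fell by 1.61 at 1 h and 2.06 at 2 h, with medians of 3.67, 2.39, 0.564, 0.285 and 0.954 RPKM. Myo5a, an unconventional myosin that carries vesicles (152.5 kb), was the member called lower at 0.5 h, where it fell by 0.59 (adjusted p = 0.0247) in 4 of 5 genotype groups, and centring ended that call. Its fall at 6 h was 2.42, with medians of 6.92, 2.85, 0.879, 0.862 and 0.607 RPKM.

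Zdhhc14, a protein palmitoyltransferase of 261.3 kb (chromosome 17, 5492599 to 5753891), was near its 0 h level at 0.5 h and far below it by 2 h. It was at 1.18, 5.61 and 7.42 RPKM at 0 h, 1.27, 4.68 and 7.32 RPKM at 0.5 h, 0.548, 1.37 and 4.12 RPKM at 1 h and 0.0526, 0.160 and 0.360 RPKM at 2 h. The 0.5 h libraries overlapped those at 0 h throughout, and no library at 2 h reached the lowest at 0 h. The difference was −0.22 (adjusted p = 0.568) at 0.5 h, −1.34 at 1 h and −2.56 (SE 0.31, limma adjusted p = 3.99e-10) at 2 h. Rnf150, a ubiquitin ligase of 227.9 kb, fell by 1.94 at 2 h and 2.21 at 6 h, with medians of 2.47, 2.15, 0.383, 0.156 and 0.0403 RPKM.

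Slc9a9, Smyd3 and Dock1 were first called lower at 2 h and Wwox at 6 h, as were far shorter members, Nav1 (150.8 kb) at 2 h and Man1a (169.8 kb) at 6 h. Slc9a9, a sodium and proton exchanger of recycling endosomes that spans 560.6 kb (chromosome 9, 94570310 to 95130871), was at 0.289, 3.73 and 5.64 RPKM at 0 h. It was at 0.377, 2.24 and 3.23 RPKM at 1 h, 0.0947, 1.07 and 1.37 RPKM at 2 h and 0.0104, 0.0291 and 0.0429 RPKM at 6 h. Up to 2 h the libraries overlapped those at 0 h, and at 6 h the highest was below the lowest at 0 h. It fell by 1.24 (limma adjusted p = 0.000903) at 2 h and 2.43 (SE 0.33, adjusted p = 5.95e-09) at 6 h, and centred at 2 h it was −0.82 (adjusted p = 0.0533).

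Smyd3 had medians of 1.41, 1.36, 0.881, 0.355 and 0.0856 RPKM, and its fall was 0.98 at 2 h and 1.37 (limma adjusted p = 1.11e-07) at 6 h. Dock1, an exchange factor for Rac used in engulfment (503.0 kb), had medians of 1.30, 1.07, 0.805, 0.442 and 0.0700 RPKM and fell by 0.79 and 1.34. Centring ended the 2 h calls of Smyd3 (−0.56, adjusted p = 0.0595) and Dock1 (−0.37, adjusted p = 0.14) and not those at 6 h. Wwox fell by 0.68 (adjusted p = 0.00675) at 6 h, a call lost when centred, with medians of 0.385 RPKM at 6 h and 1.22 RPKM at 0 h. Lrmda, Diaph2 and Cdk14, the other longest members, were called at no time: Lrmda had −0.52 at 2 h (adjusted p = 0.237), Diaph2 0.59 at 1 h (adjusted p = 0.0614) and Cdk14 0.64 at 2 h (adjusted p = 0.181). Without Nfkbid replicate 1, Lrmda fell by 0.62 at 2 h, and Diaph2 and Cdk14 were higher by 0.69 at 1 h and 0.76 at 2 h, each past the threshold. When centred, Diaph2 was called higher at 1, 2 and 6 h (0.93, 0.97 and 0.90) and Cdk14 at 2 h (1.06).

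By role, the larger groups held both rises and falls. Among 26 exchange factors, GTPase-activating and cytoskeletal proteins, 5 rose (Fchsd2, Akap13, Fmnl2, Dock4, Dock10) and 11 fell at 2 h, with Dock1, Dock2, Kif13b, Kif16b, Myo1e and Iqgap2 among those lower. Among 24 kinases and signalling enzymes, 3 rose, with Itpr1 and Phlpp1 among them, and 6 fell, with Cblb, a ubiquitin ligase that restrains signalling, lower by 1.78. Among 20 transcription and chromatin regulators, 3 rose (Arid5b, Bbx, Cdyl2) and 11 fell, among them Rere, Foxn3, Hdac4, Kmt2c and Zfp704. Among 14 membrane traffic proteins, 2 rose (Ap3b1, Atp10a) and 8 fell, with Lyst, Wdfy3, Wdfy4 and Vps13c. Among 13 enzymes of glycans and lipids, 4 rose (Cers6, Ext1, Man2a1, Parp8) and 6 fell, with Tbxas1, the thromboxane synthase, and Mgat5 and Xylt1, glycan enzymes. Of the 9 in the group of ubiquitin ligases and proteases, which does not hold Cblb, none rose and Fbxl17 and Rnf150 fell. Of the 4 centrosome proteins tested 3 fell, and the 3 ion transport and mitochondrial genes tested, Mcu, Tmem135 and Slc9a9, fell, with none higher in either group. Of the 3 RNA processing and repair genes tested, Snd1 and Ascc3 rose and none fell. Of the 12 tested in no role group, 3 rose and 3 fell. The shares over all genes tested were 13.8% higher and 35% lower, as above, and the roles were assigned for order only.

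In the DMSO series, with 1 library per time and no test, the first hour was resolved further. Of 106 members that passed the filter there, 0 were past 1.5-fold in either direction at 15 min, 7 higher and 10 lower at 30 min, and 24 higher and 35 lower at 60 min. Over the 3154 genes of all lengths the shares were 11.1% higher and 22.3% lower at 15 min, 15.4% and 47.4% at 30 min, and 21.2% and 33.3% at 60 min. Falls at 30 min made up 9.43% of the members, 49.2% of genes of 50 to 150 kb, 55% of those of 10 to 50 kb and 42.4% of those under 10 kb. Map3k5 was at 1.14, 1.04, 3.18 and 9.34 RPKM at 0, 15, 30 and 60 min, and Dock10 at 3.49, 3.51, 6.02 and 20.0 RPKM. Both were near the 0 min level at 15 min and above it from 30 min on. Fmnl2 was at 0.664, 0.656, 0.579 and 2.51 RPKM, and Zdhhc14 at 6.61, 6.81, 6.11 and 1.74 RPKM. These last moved between 30 and 60 min, while Plxnc1 was already lower at 30 min, at 2.71, 2.34, 1.55 and 0.213 RPKM over the 4 times.

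**Figure D3:**
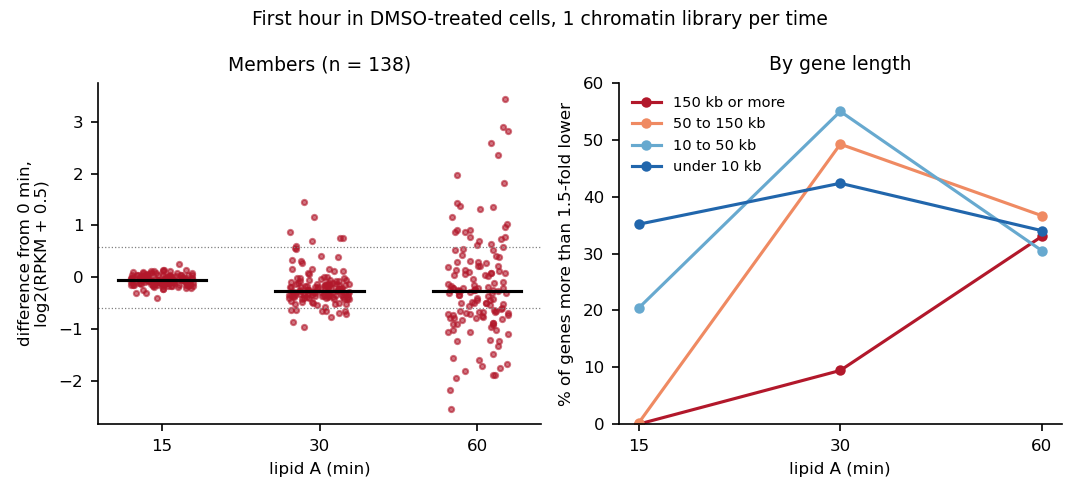
Left, the log2(RPKM + 0.5) difference from 0 min in DMSO-treated cells for all 138 members (points; bars are medians; dotted lines mark 1.5-fold). Right, the share (%) of genes more than 1.5-fold lower by length, where the members are at 0%, 9.43% and 33% at 15, 30 and 60 min.

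With ERKi, members past 1.5-fold from its own 0 min numbered 0 higher and 0 lower at 15 min (all genes 8.59% and 22.4%), 11 and 17 at 30 min (13.6% and 52.4%), and 26 and 37 at 60 min (20.9% and 41%), of 105. ERKi set against DMSO at 60 min, again 1 library each, gave 8 members higher and 5 lower of 109, beside 8.39% and 9.33% of all genes. Fchsd2 had the largest difference, at 1.06, 1.11, 4.66 and 17.7 RPKM with ERKi over the 4 times, against 0.885, 1.02, 1.56 and 4.96 RPKM with DMSO, a 60 min difference of 1.73. Tns3, a focal adhesion protein, had the lowest, −0.97, and was named after its value was seen.

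TNFa, a cytokine that also activates NF-kB, was followed in chromatin RNA with 1 library per time and no test. Of 118 members that passed the filter, 14 were higher and 1 lower than at 0 h at 0.5 h (all genes 14.6% and 14.9%), 13 and 9 at 1 h (6.65% and 5.24%), 14 and 17 at 2 h (8.72% and 6.47%), and 14 and 11 at 6 h (11.1% and 8.27%). As shares of the members, 11.86% and 0.8475% at 0.5 h were both under those of all genes. At 1 h they were 11.02% and 7.627%, at 2 h 11.86% and 14.41%, and at 6 h, near those of all genes, 11.86% and 9.322%. Dock10 was at 3.31, 9.43, 8.40, 6.63 and 4.98 RPKM over the 5 times, and Cers6 at 1.67, 3.96, 6.25, 9.58 and 7.59 RPKM. Dock10 was highest at 0.5 h and Cers6 at 2 h. Zdhhc14 was at 3.64, 2.72, 1.34, 1.44 and 1.17 RPKM, and Slc9a9 at 1.88, 2.36, 1.38, 1.01 and 0.320 RPKM. Whether the 2 stimuli differ was not tested, since TNFa has no replicate.

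Polyadenylated RNA of the members passed 1.5-fold mainly at 6 h, while many members were already called in chromatin RNA at 2 h. In the mRNA series, with 1 library per time and no test, 0 of 137 members were past 1.5-fold higher and 2 lower at 0.5 h of lipid A (all genes 3.93% and 4.92%), 3 and 0 at 1 h (5.92% and 11.4%), 11 and 21 at 2 h (8.44% and 17.4%), and 25 and 68 at 6 h (11.3% and 34.4%). All genes here include many below the chromatin level that the members had to reach. By length, 18.25% of the members were higher and 49.64% lower at 6 h. Expressed genes of 50 to 150 kb, 10 to 50 kb and under 10 kb had 18.09%, 18.31% and 20.64% higher. In the same order, 42.49%, 41.1% and 37.75% of them were lower. The sets below were chosen by their chromatin call at 2 h, so their chromatin medians at 2 h depend on that choice. Their chromatin values come from the same 65 libraries, mostly labelled KO, and the mRNA values from wild-type cells. The 22 members higher in chromatin RNA at 2 h had median chromatin differences of −0.01, 0.41, 1.24 and 1.07 at 0.5, 1, 2 and 6 h, and median mRNA differences of −0.06, 0.03, 0.07 and 1.10. Of these 22, 6 were past 1.5-fold higher in mRNA at 2 h and 17 at 6 h. The 53 lower in chromatin RNA at 2 h had median chromatin differences of −0.20, −0.54, −0.98 and −0.84, and median mRNA differences of −0.04, −0.07, −0.25 and −1.38, with 14 past 1.5-fold lower in mRNA at 2 h and 45 at 6 h. For genes of 10 to 50 kb higher in chromatin RNA at 2 h (267 genes), the mRNA medians were −0.01, 0.04, 0.57 and 1.55, and for the 678 lower they were −0.04, −0.30, −0.46 and −0.97.

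**Figure D4:**
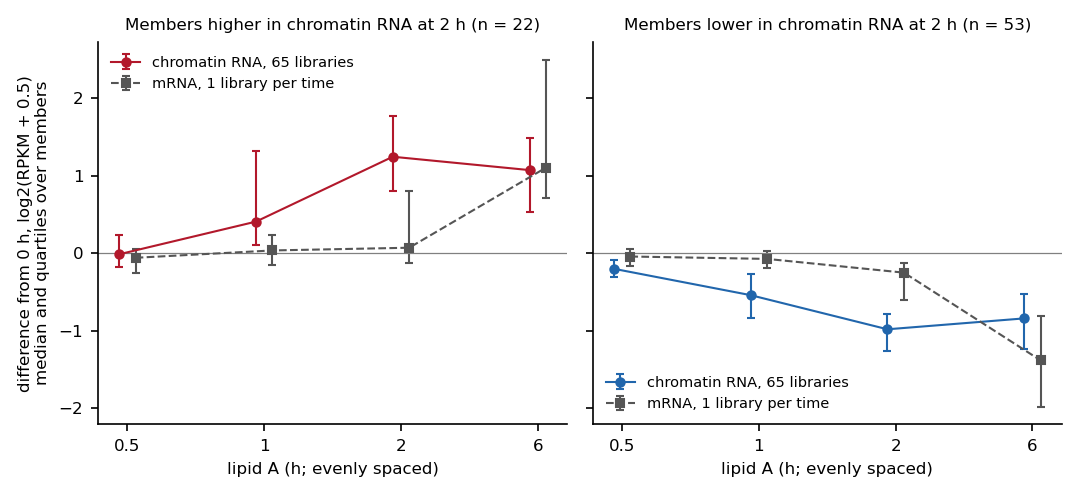
Median difference from 0 h on the log2(RPKM + 0.5) scale, with quartiles over members as bars, for the 22 members called higher (left) and the 53 called lower (right) in chromatin RNA at 2 h. In mRNA (dashed, 1 library per time) the medians at 2 h are 0.07 and −0.25, and at 6 h 1.10 and −1.38. Members were chosen by the chromatin call at 2 h, so the chromatin medians at 2 h depend on that choice.

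The members with the widest gap between the 2 kinds of RNA at 2 h, chosen for that gap, include Fmnl2, Fndc3a and Zdhhc14. Fmnl2 had mRNA levels of 1.20, 0.888, 1.22, 1.22 and 8.76 RPKM at 0, 0.5, 1, 2 and 6 h, and Fndc3a had 17.3, 14.5, 17.6, 22.3 and 105 RPKM. Both were near their starting mRNA level at 2 h, when their chromatin RNA had risen. Zdhhc14 had 21.1, 25.4, 22.0, 16.6 and 0.403 RPKM in mRNA, and so kept most of its mRNA at 2 h and little at 6 h. Cers6 had 13.8, 13.8, 15.8, 44.3 and 121.5 RPKM, and Slc9a9 had 10.2, 8.75, 8.29, 8.98 and 3.11 RPKM.

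The gap between chromatin and mRNA differences at 2 h was highest in Fmnl2 (2.57), Cdyl2 (1.78), Fndc3a (1.69) and Fbxw7 (1.61), a substrate receptor of a ubiquitin ligase. Chromatin RNA of Fbxw7 did not rise: its difference was −0.97 at 1 h and 49.2% of that at 2 h. Its mRNA difference at 2 h was thus lower still. The gap was lowest in Hivep3 (−3.85), Zdhhc14 (−2.22), Vps13c (−1.57), Mgat5 (−1.45) and Tmem135 (−1.40). Hivep3 ran the other way from Fmnl2: its chromatin medians were 0.510, 1.07, 2.77, 0.449 and 0.567 RPKM at the 5 times, and its mRNA was at 1.96, 2.21, 6.13, 39.0 and 9.0 RPKM. Its chromatin RNA was highest at 1 h and its mRNA at 2 h. The gene length behind the polyadenylated RPKM is not given in the sources used here, so only changes, not levels, are set across the 2 kinds of RNA.

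In the J2 cells, polyadenylated RNA at 2 h was tested over 4 pairs of libraries (wild type, Nfkb1-/- and 2 replicates of Nfkb1-/- Nfkb2-/-), with genotype as a term. Of 133 members tested 10 were higher and 16 lower at 2 h, beside 5.8% and 6.9% of 6436 genes, with a median difference of −0.20 beside −0.13. Without 1 library the counts were 6 to 11 higher and 6 to 20 lower, with 7 and 8 without wild type and 6 and 6 without Nfkb1-/-. Hivep3 had 11.9, 9.46, 15.7 and 32.7 RPKM at 2 h, against 0.411, 0.373, 2.06 and 1.52 RPKM at 0 h, a difference of 3.49 (SE 0.24, limma adjusted p = 0.000858). Abtb2 had 8.91, 4.04, 4.11 and 2.95 RPKM at 2 h, against 1.22, 0.312, 0.402 and 0.124 RPKM at 0 h, a difference of 2.44. In both members all 4 libraries at 2 h lay above all 4 at 0 h. Ext1 was higher by 1.72, Arid5b, a DNA-binding cofactor, by 1.45, Cers6 by 1.42 and Map3k5 by 1.40. Plxna2 was higher by 1.07 in J2 polyadenylated RNA, while its chromatin RNA at 2 h was lower, as above. The largest falls were in Peak1, a pseudokinase (1.14), Kif13b, a kinesin (1.03), Rere, a nuclear corepressor (0.93), Xylt1 (0.90), Zswim6 (0.86) and Mvb12b (0.83). Peak1 had 8.32, 5.59, 11.7 and 5.99 RPKM at 2 h, against 19.1, 15.9, 23.9 and 12.2 RPKM at 0 h, and the groups did not overlap.

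In Nfkbiz KO macrophages, members differed from WT mainly at 6 h. Members were counted here only where they met the rule without the WT libraries of the same series (131, of which 130 were tested). At 0, 0.5 and 1 h, 0 members were called by limma, and 0 had an unadjusted p under 0.05 with 1.5-fold. At 2 h, 4 were higher and 2 lower in Nfkbiz KO, beside 0.942% and 2.05% of 4885 genes, and at 6 h 18 were higher and 6 lower, beside 3.97% and 10.3%. The median member difference at 6 h was 0.03, against −0.24 over all genes, and over all times 19 members were higher and 8 lower, or 30 and 5 with libraries centred. The shares of all genes over all times, uncentred or centred, are not given here. With the replicate number as a block, the counts were 6 and 3 at 2 h (all genes 1.597% and 3.623%) and 20 and 7 at 6 h (4.954% and 13.8%). With a block at each time they were 1 and 1 at 1 h (Cers6 and Parp8, all genes 1.024% and 2.354%), 11 and 4 at 2 h (2.129% and 4.176%) and 20 and 8 at 6 h (5.241% and 13.96%). With any 1 replicate of either genotype left out, the number higher over all times was 5 to 10 and the number lower 3 to 10.

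Kinases and signalling enzymes were among the higher ones. Plcl2, a phospholipase C-like protein, was at 16.5 and 18.1 RPKM in Nfkbiz KO at 6 h, against 4.91 and 6.72 RPKM in WT, a difference of 1.51 (SE 0.18, limma adjusted p = 9.83e-05), and it was 0.80 higher at 2 h. Abtb2 was at 12.1 and 12.5 RPKM in Nfkbiz KO, against 2.70 and 4.58 RPKM in WT, a difference of 1.67 (SE 0.44, adjusted p = 0.02). The KO and WT libraries did not overlap in either. Here and below, the same libraries made the calls, so a lack of overlap is no separate evidence. Cdk6 was higher by 1.02, Itpr1, a calcium channel of the endoplasmic reticulum, by 0.85, Sik3, a salt-inducible kinase, by 0.76, Phlpp1, a protein phosphatase, by 0.74, Trio by 0.72 and Cblb by 0.69.

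Man1a and Man2a1, mannosidases that trim N-glycans in the Golgi, were higher too. Man1a was at 1.61 and 2.24 RPKM in Nfkbiz KO at 6 h, against 0.315 and 0.557 RPKM in WT, a difference of 1.37, and Man2a1 at 3.53 and 3.92 RPKM, against 1.93 and 1.75 RPKM, a difference of 0.85. Myo1e, a class I myosin, was at 9.24 and 7.70 RPKM in Nfkbiz KO and 4.14 and 1.98 RPKM in WT. Cdyl2 was at 2.53 and 2.58 RPKM in Nfkbiz KO and 0.870 and 0.862 RPKM in WT, a difference of 1.16 (SE 0.13, limma adjusted p = 5e-05). For each of these 4 the KO values lay above the WT values. Lyst, Tbxas1, Dock4, Fbxw7 and Skap2 were also higher, by 0.61 to 0.81, as was Arhgap22, a GTPase-activating protein for Rac, by 1.09.

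The 6 lower members were led by Fchsd2, at 0.504 and 0.389 RPKM in Nfkbiz KO at 6 h, against 2.47 and 1.85 RPKM in WT, a difference of −1.48 (SE 0.20, limma adjusted p = 0.000258). Elmo1, the partner of Dock proteins in Rac activation, was at 0.690 and 0.590 RPKM in Nfkbiz KO and 3.14 and 1.99 RPKM in WT, a difference of −1.40. Hdac9, a class IIa histone deacetylase, was at 1.498 and 1.40 RPKM in Nfkbiz KO and 3.80 and 5.44 RPKM in WT, a difference of −1.37 (adjusted p = 0.00194). None of the 3 overlapped between genotypes. Ugt1a10 was lower by 1.16 over a span shared with its neighbours, Vps13c by 1.01 and Ralgapa2, a GTPase-activating protein for Ral, by 0.77. At 2 h, Nedd4l, a ubiquitin ligase of ion channels, was higher by 0.86 (adjusted p = 0.00599) and Atf6, a sensor of unfolded proteins, lower by 0.64.

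**Figure D5:**
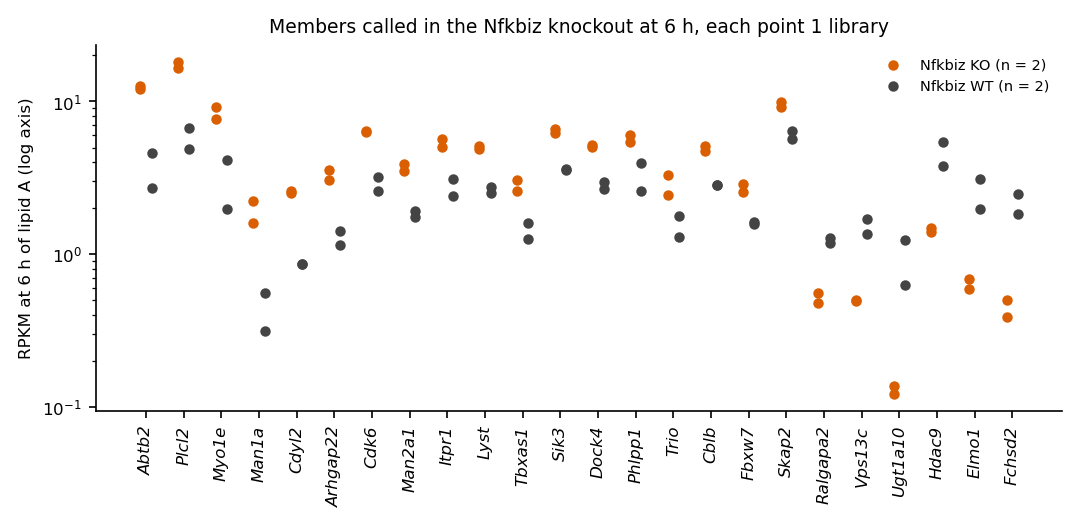
Chromatin RNA (RPKM, log axis) of the 24 members called between Nfkbiz KO (left point of each pair, n = 2) and WT (n = 2) at 6 h of lipid A, each point 1 library. Abtb2 to Skap2 are higher in KO and Ralgapa2 to Fchsd2 lower, and KO and WT do not overlap in any of them. The same libraries made the calls, so the lack of overlap is no separate evidence. The share of all genes without overlap is not given.

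In the Nfkb1, Bcl3 and Nfkbid series, 0 members were called in limma at any time. Over all genes in Nfkb1 KO, none was called at 0 h, 0% were higher and 0.0663% lower at 0.5 h, 0.0884% and 0.641% at 1 h, 0% and 0.442% at 2 h, and 0.133% and 0.265% at 6 h. In the other 2 series 0% were called in either direction. At an unadjusted p under 0.05 with 1.5-fold, Nfkb1 KO had 1 member higher and 1 lower at 1 h and at 2 h, and 3 and 1 at 6 h, and Nfkbid KO had none. Without replicate 1 of either genotype of the Nfkbid series the calls were also 0. The libraries labelled Bcl3 KO had 0 higher and 11 lower at 0.5 h and 0 elsewhere at that unadjusted level. In none of these series is the share of all genes at the unadjusted level given here, so these counts cannot be set against it. In the libraries labelled Bcl3 KO, the median difference from WT was −0.46 over members and −0.13 over all genes at 0.5 h, and −0.29 and −0.16 at 2 h. Without Bcl3 KO replicate 2, replicate 1 stands alone, so the calls of that fit are not counted here. At 0.5 and 2 h the members' median was 0.565 and 0.606 RPKM in replicate 1 of the libraries labelled Bcl3 KO, and 1.73 and 1.28 RPKM in replicate 2.

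With the replicate number as a block, 3 members were called in Nfkb1 KO, 1 higher at 2 h (all genes 0.06633% higher and 1.747% lower) and 2 lower at 6 h (1.128% and 1.216%). Hdac9 at 6 h was at 0.370, 1.21 and 1.98 RPKM in Nfkb1 KO, against 0.614, 4.19 and 3.92 RPKM in WT, a blocked difference of −0.88 (limma adjusted p = 0.0271). Wdfy3, a scaffold of selective autophagy, was at 0.803, 2.53 and 1.77 RPKM in Nfkb1 KO at 6 h, against 1.94, 3.36 and 3.17 RPKM in WT, a blocked difference of −0.65 (adjusted p = 0.0421). Iqgap2, a scaffold for Cdc42 and Rac, was at 0.402, 1.53 and 1.24 RPKM in Nfkb1 KO at 2 h, against 0.311, 0.530 and 0.558 RPKM in WT, a blocked difference of 0.61 (adjusted p = 0.0308). In each replicate pair the 3 members kept the sign of the mean, although the unpaired groups overlapped.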

How the data were processed

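RPKM values for 15196 genes in 136 libraries (113 of chromatin-associated RNA, 23 of polyadenylated RNA) were used as the authors deposited them. HISAT2, SAMtools and the mm9 build are named in the submitters' processing notes, without versions. Library preparation used a stranded TruSeq kit per the labels' protocols, which describe a chromatin extraction also for samples labelled polyA RNA. How reads were counted, and over which length in polyadenylated RNA, is not given in the sources used here. In chromatin RNA the low values were whole multiples of 1 read over the gene's whole span: at 30 reads or fewer, 97.5% to 100% of values came out within 0.02 of a whole number.

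From these values, log2(RPKM + 0.5) was fitted with limma 3.58.1 (R 4.3.3; empirical Bayes with a trend) on all genes that reached 1 RPKM in at least 13 libraries (time course) or in as many as a genotype has replicates (knockouts and J2), with Benjamini-Hochberg adjustment over all genes tested. Reads were not recovered for a count test. A gene was called at an adjusted p under 0.05 and at least 1.5-fold, and comparisons with 1 library per condition give folds only. Standard errors are of the log2 difference. Knockouts were set against the wild type of their own series at each time, over members that met the rule without that wild type. Same-numbered knockout and wild-type libraries deviated together (correlations 0.61 to 0.92 in the Nfkb1, 0.89 to 0.97 in the Nfkbid, 0.45 to 0.73 in the Nfkbiz and 0.27 to 0.76 in the Bcl3 series), with 3 pairs in the first and second and 2 in the others, so the blocked fit stands beside results that it changes. Tables were handled with Python 3.11.15 and pandas 2.3.3. The time-course fit was tested on simulated data for 4255 genes (2 h minus 0 h): 71% of 2-fold and 95% of 4-fold changes were recovered, and 4 unchanged genes were called.

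The members, roles and lists were chosen with earlier results of these data known. Members are named by a rule: the called ones with the largest differences in each contrast and the same sign in all genotype groups, the longest, those next to a threshold, and those with the largest gap between chromatin RNA and mRNA; Ankrd44, Apba1 and Myo5a at 0.5 h, and single-library values of other members, were added after their values were seen. The values of 1 member are not reported here.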

Additional observations from a re-analysis of the deposited data

Results flagged for a closer look

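In the Nfkbiz series, the difference between KO and WT itself differed between 6 h and 2 h in 3 members. This test, chosen after seeing the data, called 2 members with a more positive and 1 with a more negative effect at 6 h of 130 tested, beside 0.778% and 0.757% of 4885 genes. The Arhgap22 effect was 1.09 at 6 h and −0.79 at 2 h, a difference of effects of 1.88 (SE 0.28, limma adjusted p = 0.00301). Its chromatin RNA was at 3.55 and 3.06 RPKM in Nfkbiz KO and 1.43 and 1.15 RPKM in WT at 6 h, and at 1.45 and 1.57 RPKM in Nfkbiz KO and 4.0 and 2.17 RPKM in WT at 2 h. The KO libraries were thus above both WT libraries at 6 h and below both at 2 h. The Man1a effect was 1.37 at 6 h and −0.02 at 2 h, a difference of 1.40 (SE 0.26, adjusted p = 0.0119). Its 2 h values were 1.37 and 1.66 RPKM in Nfkbiz KO and 1.55 and 1.53 RPKM in WT. The Sash1 effect was −0.56 at 6 h and 0.39 at 2 h, a difference of −0.94 (SE 0.21, adjusted p = 0.0437). Sash1 was at 6.72 and 7.47 RPKM in Nfkbiz KO and 10.2 and 11.1 RPKM in WT at 6 h, and at 7.82 and 7.34 RPKM in Nfkbiz KO and 5.16 and 6.27 RPKM in WT at 2 h.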

How the results depend on the processing

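Apart from left-out replicates, 276 values were recomputed under another setting, of which 210 stayed close, 62 moved further and 4 changed sign. Close meant within 1.5 times for a count. For a median difference it meant a change smaller than its SD over genotype groups. Shares over all genes stand above for centring and for the fit without Nfkbid replicate 1. They are not given for the other time-course settings or for left-out replicates. Counts below are of members in the time course, higher then lower. With libraries centred, they were 14 and 0 at 0.5 h, 26 and 11 at 1 h, 30 and 24 at 6 h, and 22 lower at 2 h. At 2-fold, they were 2 and 0 at 0.5 h, 10 lower at 1 h, 14 and 25 at 2 h, 22 lower at 6 h, and 14 and 22 between 2 h and 0.5 h. With the filter at 3 RPKM, lower members were 9 at 1 h, 18 at 2 h and 15 at 6 h, and between 2 h and 0.5 h 13 were higher and 18 lower, since fewer genes were tested. The 1 lower call at 0.5 h became 3 with a pseudocount of 0.1 and 0 with 1. Without Nfkbid replicate 1, 4 were lower at 0.5 h and 20 higher at 1 h, and with the replicate block added these stayed at 4 and 20. The Nfkbid wild type alone gave 0 in each count except 1 lower at 6 h. Its replicates 2 and 3 alone gave 2 and 0 at 0.5 h, 9 and 30 at 1 h, 8 and 46 at 2 h, 8 and 34 at 6 h, and 10 and 38 between 2 h and 0.5 h. At 0.5 h, higher members were 1 without the Nfkb1 KO group, 3 without Nfkbiz KO and 4 without Bcl3 KO, and lower ones 4, 0 and 0. The members' median difference with centring was 0.276 at 0.5 h and 0.0946 at 1 h, both of the opposite sign, −0.0418 at 2 h and −0.0164 at 6 h. Among members of at least 3 RPKM it was 0.0018 at 1 h and 0.00317 at 6 h, of the opposite sign, and −0.189 at 2 h. The cause was not tested.

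In the Nfkb1 series, the replicate block gave 1 higher and 2 lower, and a block at each time 7 and 3. With a block at each time, 1 and 0 were called at 1 h (all genes 1.658% and 3.117%), 2 and 0 at 2 h (0.4643% and 2.985%) and 5 and 3 at 6 h (2.918% and 2.388%). In the Nfkbiz series, centring gave 30 and 5, 2-fold 7 and 5, and a pseudocount of 1 or a filter at 3 RPKM 5 lower. No share over all genes is given beside these Nfkbiz counts. In J2, lower members were 9 with no filter and 2 at 2-fold. The replicate block moved no other count of members by over 1.5 times.

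With 1 replicate left out, higher and lower members ranged over 5 to 9 and 0 to 3 at 0.5 h, 13 to 18 and 28 to 36 at 1 h, 20 to 25 and 48 to 55 at 2 h, 17 to 22 and 39 to 50 at 6 h, and 19 to 24 and 45 to 50 between 2 h and 0.5 h. They ranged over 5 to 10 and 3 to 10 in the Nfkbiz series and 6 to 11 and 6 to 20 in J2. In the Bcl3 series they were 0 and 0 to 125, with 125 reached without Bcl3 KO replicate 2, whose remaining library is assumed to vary like the other groups. In the Nfkb1 and Nfkbid series both were 0 throughout. Whether read depth limited the members was not tested. The 2 replicates per genotype limit the Nfkbiz and Bcl3 comparisons, and DMSO, ERKi, TNFa and mRNA libraries have no replicate.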

Other observations

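Genes of transcription elongation, a list of 32 in the table with 25 tested, had 2 higher and 2 lower at 0.5 h of lipid A, 1 and 2 at 1 h, 2 and 7 at 2 h, and 2 and 4 at 6 h, in the same chromatin libraries and limma fit as the members. Beside these stand 13.8% higher and 35% lower of all genes at 2 h. The lower counts leave out Mllt1, although it was past both thresholds. Its difference was −0.69 (limma adjusted p = 8.89e-07) at 2 h and −0.70 (adjusted p = 9.44e-07) at 6 h. Ell2, a subunit of the super elongation complex, was higher by 2.43 at 0.5 h, 2.31 at 1 h and 1.48 at 6 h, and Aff1, a scaffold of that complex, by 1.59 at 2 h and 1.32 at 6 h. Top1, which relaxes supercoiled DNA ahead of the polymerase, was higher by 0.76 at 0.5 h, and Tcea1, which restarts stalled polymerase, by 0.61 at 2 h. Ell was lower by 0.91, 1.31, 1.65 and 0.84 at 0.5, 1, 2 and 6 h. Cdk9, the kinase of P-TEFb, was lower by 0.98 at 2 h, Hexim1, its inhibitor, by 1.05, Eaf1 by 0.73 and Aff4 by 0.65. Nelfe, a subunit of the pausing factor NELF, was lower by 0.77 at 0.5 h, and Supt16, a subunit of the histone chaperone FACT, by 1.02 at 6 h. The type II topoisomerases were lower too, Top2a by 1.05, 1.54 and 2.33 at 1, 2 and 6 h, and Top2b by 0.78 and 0.84 at 2 and 6 h.

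In mRNA after TNFa, 28 members were past 1.5-fold higher and 46 lower at 6 h of 138 (all genes 8.95% and 21.3%), and 8 and 6 at 2 h (5.03% and 5.93%). As shares at 6 h, 20.29% of the members were higher and 33.33% lower. Expressed genes of 50 to 150 kb, 10 to 50 kb and under 10 kb had 16.67%, 13.19% and 15.47% higher. In the same order, 21.04%, 24.31% and 27.65% of them were lower. The TNFa and lipid A mRNA series share their 0 h library. In unstimulated IkBz OE cells against Control, with 1 library each, 3 of 136 members were past 1.5-fold higher and 17 lower (all genes 5.84% and 6.68%). Slc9a9 was at 13.6 RPKM in IkBz OE and 31.4 RPKM in Control, and Cdk6 at 7.84 RPKM in IkBz OE and 14.7 RPKM in Control. Arid5b, Fmnl2 and Xylt1 were the 3 above, by 0.91, 0.84 and 0.71.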
